A study of Mus musculus with 10 samples.

Results

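The Tudor-domain genes of the germ granule and the helicase gene *Mov10l1* were followed through loss of MAX in mouse ESCs. The group was 10 genes (*Tdrd1*, *Tdrd5*, *Tdrd6*, *Tdrd7*, *Tdrd9*, *Tdrd12*, *Tdrkh*, *Mov10l1*, *Stk31* and *Rnf17*), and each was read from the probe sets that the array annotation pairs with its symbol and no other. That rule gave 14 probe sets for 9 of the 10 genes, out of 18193 genes measured this way. *Tdrd6*, a scaffold of the chromatoid body, had no such probe set, so it was not analysed here.

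RNA came from male 129SV ESCs whose endogenous *Max* gene is homozygously disrupted and which live on a MAX transgene under a tetracycline-off switch, so that doxycycline (Dox) shuts it down. All groups, untreated included, carry the disruption and the transgene. In medium with leukaemia inhibitory factor and serum (LIF+serum) there were 8 arrays. One set held an untreated array and 1 array each after 1, 2, 3 and 4 d of Dox, and another held a second untreated array and 1 array each after 6 and 8 d. A further set was grown for 6 d in 2i medium, which holds LIF and inhibitors of MEK and GSK3. This set had 1 untreated array and 1 array after 6 d of Dox. LIF was thus present in both media. Every Dox time was thus 1 array. No source used here states whether the untreated arrays stem from separate cultures. The p-values therefore reflect how far single arrays scatter around a straight line over days. That scatter can be technical, and a course that is not straight adds to it.

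PIWI-interacting RNAs (piRNAs) are small RNAs of germ cells that guide PIWI proteins to transposon transcripts and so protect the germline genome. Their precursors are processed in germ granules, RNA-rich bodies without a membrane that often sit between mitochondria. Tudor domains of germ granule proteins bind methylated arginines, which PIWI proteins carry, and these Tudor proteins thereby assemble the granules. MAX is the partner through which MYC, MXD and MGA proteins bind the E box, and loss of MAX is known to switch on germline genes in ESCs.

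In LIF+serum, 5 of the 9 measured genes rose with days of Dox, 1 fell and 3 did not pass the test. *Mov10l1*, *Stk31*, *Tdrd9*, *Tdrd7* and *Rnf17* rose, by 0.40 to 0.67 per day on the log2 scale, and *Tdrd12* fell by 0.24 per day. Among all 18193 genes, 5.75% rose and 5.33% fell at an adjusted p under 0.05 from limma with Benjamini-Hochberg adjustment. The median slope was 0.40 per day over the 9 genes and -0.01 over all genes. The study had picked out *Mov10l1*, *Stk31*, *Tdrd9* and *Rnf17* on the arrays in LIF+serum, so their direction is not independent evidence. Without the second untreated array, 0 of the 9 genes were called by limma, with 5 higher and 0 lower before adjustment (p under 0.05), and 1 call, the rise of *Tdrd7*, remained when each gene kept its own variance. Without that array the slopes were 0.76 for *Mov10l1*, 0.93 for *Stk31*, 0.77 for *Tdrd9*, 0.58 for *Rnf17* and 0.45 for *Tdrd7*, and -0.04 for *Tdrd12*. Over the first set alone, without the whole second set, the slopes in the same order were 0.94, 1.21, 1.06, 0.75, 0.47 and 0.05. The slopes of the 5 genes that rose thus stayed positive in both fits. The share of all genes called was not computed without the second untreated array or with each gene's own variance. Without the second untreated array 0 of 15 other piRNA pathway genes and 0 of 20 Tudor-domain genes with broad expression were called either. *Tdrd9* and *Stk31* also lost their calls without the first untreated array, without Dox 1, 3, 4 or 6 d and after a further quantile normalization.

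**Figure D1:**
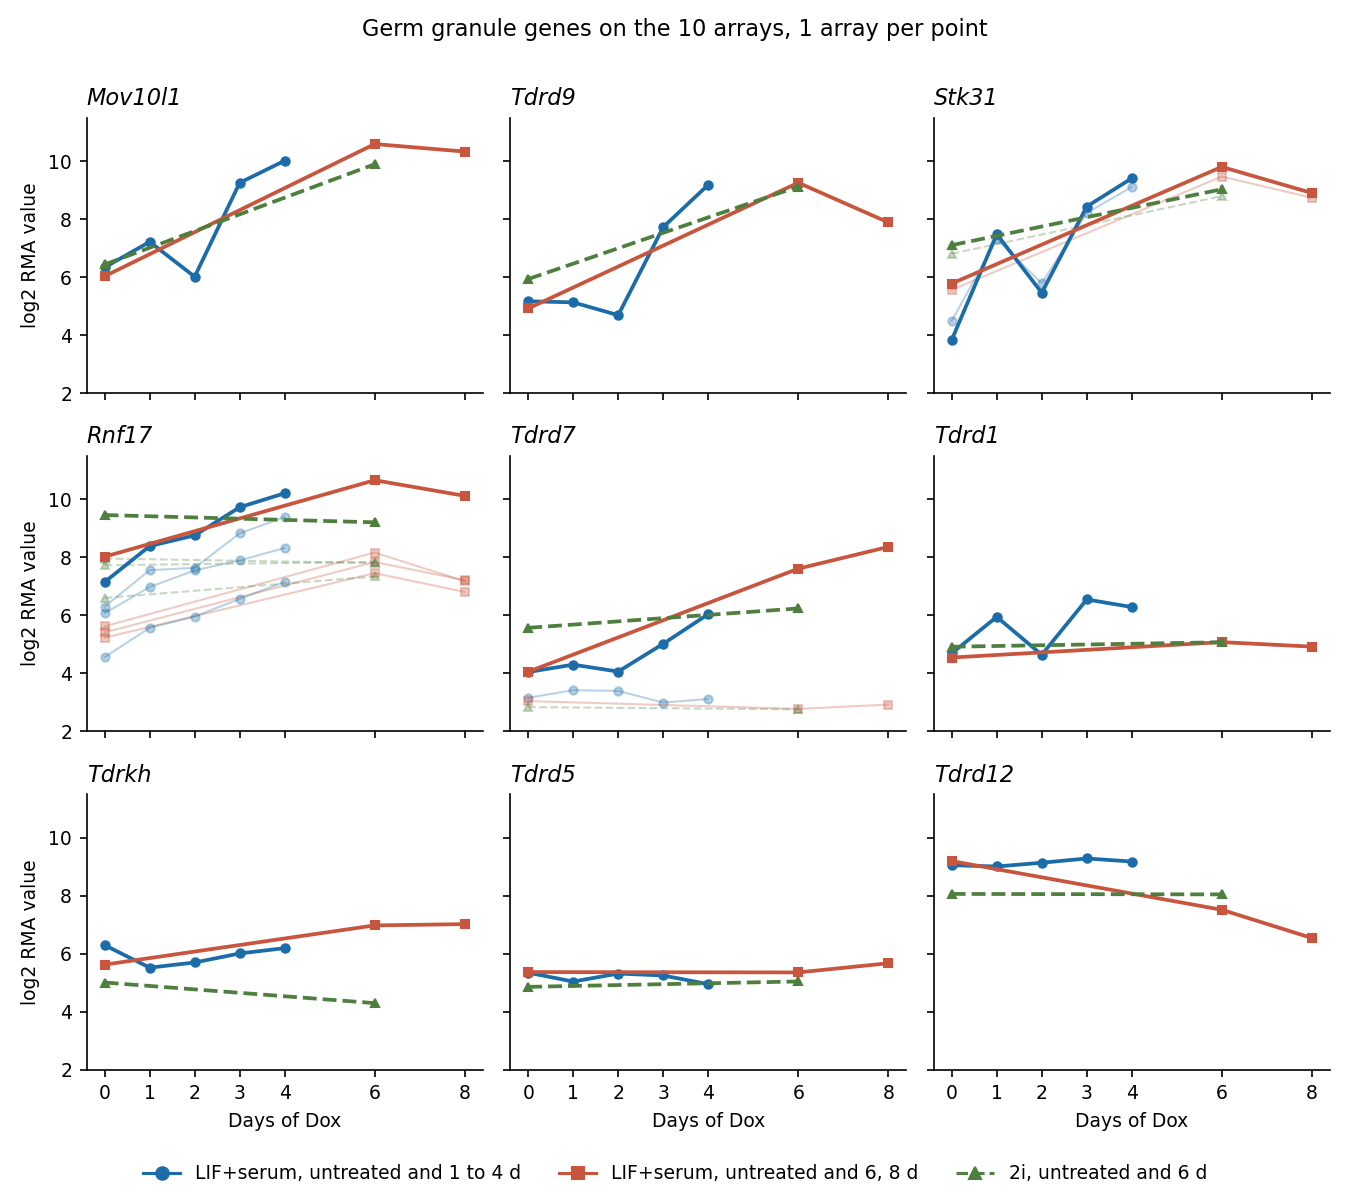
Deposited log2 values (vertical axes) of the 9 measured genes against days of Dox (horizontal axes), 1 array per point, with lines joining the arrays of a set and faint lines for further probe sets of a gene. Levels of *Mov10l1*, *Tdrd9*, *Stk31* and *Rnf17* were highest at 6 d among the 8 arrays in LIF+serum, although *Stk31* and *Rnf17* were farthest above the untreated array of their set at 4 d, *Tdrd7* climbed to 8.36 at 8 d, and *Tdrd12* stayed between 9.01 and 9.29 up to 4 d and was 7.52 and 6.54 at 6 and 8 d.

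Windows around the transcription starts were searched for the E box, since it is the element that MAX complexes bind, and those of some genes are shown. RefSeq promoter windows (GRCm38.p6, 250 bases before to 50 after a start, 300 bases in all) were given for 8 of the 10 genes, and *Rnf17* and *Tdrd6* were not among them. The E box CACGTG, which reads the same on both strands, lay in a window of 4 of these 8 genes, *Mov10l1*, *Stk31*, *Tdrd9* and *Tdrd1*. Over all 27025 genes with a window, 8.09% held it, and over all 32851 windows, 7.15%. It was in no window of *Tdrd12*, *Tdrd5*, *Tdrd7* or *Tdrkh*. Motif and rise thus did not always go together: *Tdrd7* rose without it, and *Tdrd1* held it but did not pass the test. The windows of 3 genes with the motif and of *Tdrd12* without it follow, 5′ to 3′ on the strand of the gene, with the E box in capitals.
Mov10l1, chr15:88982744-88983043, plus strand: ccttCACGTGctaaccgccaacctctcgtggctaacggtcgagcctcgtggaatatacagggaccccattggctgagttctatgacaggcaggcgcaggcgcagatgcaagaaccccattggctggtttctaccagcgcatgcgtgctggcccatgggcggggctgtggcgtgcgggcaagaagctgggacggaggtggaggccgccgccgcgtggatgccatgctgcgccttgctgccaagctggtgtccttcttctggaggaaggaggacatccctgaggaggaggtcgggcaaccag
Stk31, chr6:49395289-49395588, plus strand: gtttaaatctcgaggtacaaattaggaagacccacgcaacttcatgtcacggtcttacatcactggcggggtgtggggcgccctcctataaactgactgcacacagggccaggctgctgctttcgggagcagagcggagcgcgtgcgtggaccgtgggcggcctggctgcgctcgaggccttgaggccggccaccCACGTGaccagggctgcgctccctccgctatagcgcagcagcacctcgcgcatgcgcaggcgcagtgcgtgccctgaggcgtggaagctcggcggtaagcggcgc
Tdrd9, chr12:111971309-111971608, plus strand: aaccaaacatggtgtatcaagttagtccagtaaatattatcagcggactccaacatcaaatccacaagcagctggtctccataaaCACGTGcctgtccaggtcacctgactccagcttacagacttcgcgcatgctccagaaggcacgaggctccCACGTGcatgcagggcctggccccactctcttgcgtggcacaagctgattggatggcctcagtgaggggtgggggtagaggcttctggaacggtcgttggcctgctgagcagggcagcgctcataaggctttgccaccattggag
Tdrd12, chr7:35537695-35537994, minus strand: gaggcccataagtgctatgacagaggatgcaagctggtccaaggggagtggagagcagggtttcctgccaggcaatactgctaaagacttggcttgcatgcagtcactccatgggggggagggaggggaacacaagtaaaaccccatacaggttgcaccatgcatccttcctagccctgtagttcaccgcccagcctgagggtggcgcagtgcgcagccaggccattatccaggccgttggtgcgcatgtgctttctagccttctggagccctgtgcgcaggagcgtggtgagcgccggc
The first base of the motif was at -246 in *Mov10l1*, at -55 in *Stk31* and at -165 and -95 in *Tdrd9*, counted from the start. In *Tdrd1* it was at -11. The E2F motif TTCCCGC and the T box motif GGTGTGA, searched on both strands because E2F6 and the T-box protein MGA work with MAX, were each found in *Tdrd5* alone among the 8 genes. They were present in 5.29% and 4.60% of all genes with a window. A match is only a run of letters, and binding was not measured.

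Among the helicases, *Mov10l1* encodes the RNA helicase that binds piRNA precursors and hands them to processing. Its log2 value was 6.33 on the first untreated array, 7.21 at 1 d, 6.01 at 2 d, 9.25 at 3 d and 10.01 at 4 d. In the second set it was 6.03 untreated, 10.59 at 6 d and 10.33 at 8 d. The 4 arrays from 3 d on thus stood more than 2 log2 units above both untreated arrays, and those at 1 and 2 d did not. Relative to the untreated array of its set, this was a fold of 7.54 for 3 d, 12.8 for 4 d and 23.5 for 6 d. The slope was 0.67 per day (SE 0.12, adjusted p = 0.0105 from limma).

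*Tdrd9* encodes a helicase with a Tudor domain that works with the PIWI protein MIWI2 in fetal male germ cells. Its log2 value was 5.17 untreated, 5.13 at 1 d, 4.69 at 2 d, 7.72 at 3 d and 9.18 at 4 d. The second set gave 4.92 untreated, 9.25 at 6 d and 7.89 at 8 d. There was no gain at 1 or 2 d, and the value at 8 d lay below those at 4 and 6 d. The fold was 16.2 for 4 d, 20.2 for 6 d and 7.82 for 8 d. The daily slope was 0.59 (SE 0.15, adjusted p = 0.0408 from limma).

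*Tdrd12* encodes a further Tudor protein with a helicase domain, which acts in the making of secondary piRNAs. RefSeq also lists it as ECAT8, an ES cell associated transcript. Its log2 values in the first set were 9.05 untreated and 9.01, 9.14, 9.29 and 9.18 at 1 to 4 d. They were 9.20, 7.52 and 6.54 untreated, at 6 d and at 8 d in the second set. *Tdrd12* did not move beyond 0.23 log2 units up to 4 d, and at 6 and 8 d was below every other array in LIF+serum. The untreated value of the set was 3.20-fold that at 6 d and 6.28-fold that at 8 d. Its log2 value fell by 0.24 per day (SE 0.06, adjusted p = 0.0308 from limma), and it rested on the later set. Over the first set alone the slope was 0.05 (adjusted p = 0.632 from limma), without 6 d the adjusted p was 0.0604 and without 8 d it was 0.127.

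RNA quality moved with the later set. The log2 excess of the 3′ over the 5′ control probe set of beta-actin was 1.46 at 6 d, 1.22 at 8 d and 0.88 untreated in that set, against 0.41 to 0.56 in the first set, while that of *Gapdh* stayed between -0.12 and 0.12 on all 10 arrays. Its part in the fall of *Tdrd12* or in the values of the other genes at 6 and 8 d was not tested. The ESC label held throughout, since the 6 ESC markers (*Dppa5a*, *Esrrb*, *Nanog*, *Pou5f1*, *Sox2* and *Zfp42*) stayed above 10.3 log2 on the 10 arrays and 1 of them, *Nanog*, rose. No marker of primitive endoderm (5 genes), fibroblasts (6 genes) or late male germ cells (6 genes) passed the test by limma (0 higher and 1 lower, 0 and 0, and 1 and 1 before adjustment), and these reached at most 6.24, 6.90 and 6.71 log2. *Gata6* of endoderm and *Col1a2* of fibroblasts were highest at 8 d, and the summed level of the 6 fibroblast markers was 7.75 log2 there against 6.77 and 7.19 on the untreated arrays in LIF+serum. Their part in the values at 8 d was not tested. The arrays measure bulk RNA, in which fewer cells that express a gene and less RNA per cell cannot be told apart.

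*Stk31* encodes a Tudor protein with a kinase-like domain found in meiotic and postmeiotic germ cells. Its brighter probe set read 3.84 untreated, 7.48 at 1 d, 5.46 at 2 d, 8.43 at 3 d and 9.40 at 4 d. In the second set it read 5.78 untreated, 9.80 at 6 d and 8.90 at 8 d. The first untreated array was the lowest of the 10, and the second stood 1.94 log2 units higher, so the fold depends on which one is the reference. The value at 6 d was 16.2-fold that of its own untreated array and 62.3-fold that of the first. The value at 2 d, 5.46, lay below the second untreated array, 5.78. The slope was 0.62 per day (SE 0.17, adjusted p = 0.0467 from limma), and 0.58 (SE 0.13, adjusted p = 0.0255 from limma) by the second probe set, which moved with the first at r = 0.994 over the 10 arrays.

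*Rnf17* encodes a protein with a RING finger and Tudor domains. RefSeq lists it also as TDRD4 and as MMIP-2, a name it has from binding MXD proteins, which are themselves partners of MAX. Its brightest probe set read 7.15 untreated and 8.39, 8.76, 9.73 and 10.21 at 1 to 4 d. The second set gave 8.03 untreated, 10.66 at 6 d and 10.12 at 8 d. Unlike *Mov10l1*, *Tdrd9* and *Stk31*, it was higher at each day than at the one before within the first set, and its fold was already 2.36 after 1 d and 3.05 after 2 d. The second untreated array, at 8.03, lay nearer to the values at 1 and 2 d (8.39 and 8.76), so these folds depend on the reference. The slope was 0.40 per day (SE 0.08, adjusted p = 0.0139 from limma).

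*Rnf17* had 4 probe sets, and each passed the test, with slopes of 0.31 to 0.40 per day and adjusted p of 0.0139 to 0.0274 from limma. They disagreed on the untreated level. The second untreated array minus the first was 0.88 log2 units in the probe set with the highest mean and 1.06 in that with the lowest, but -0.89 and -0.84 in the others. The fold at 6 d against the array of the same set ran from 4.67 to 6.21 over the 4 probe sets, but against the first untreated array it ran from 2.61 to 12.2. Over the 10 arrays that with the highest mean had r = 0.939 with that with the lowest, and r = 0.698 and 0.680 with the others.

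**Figure D2:**
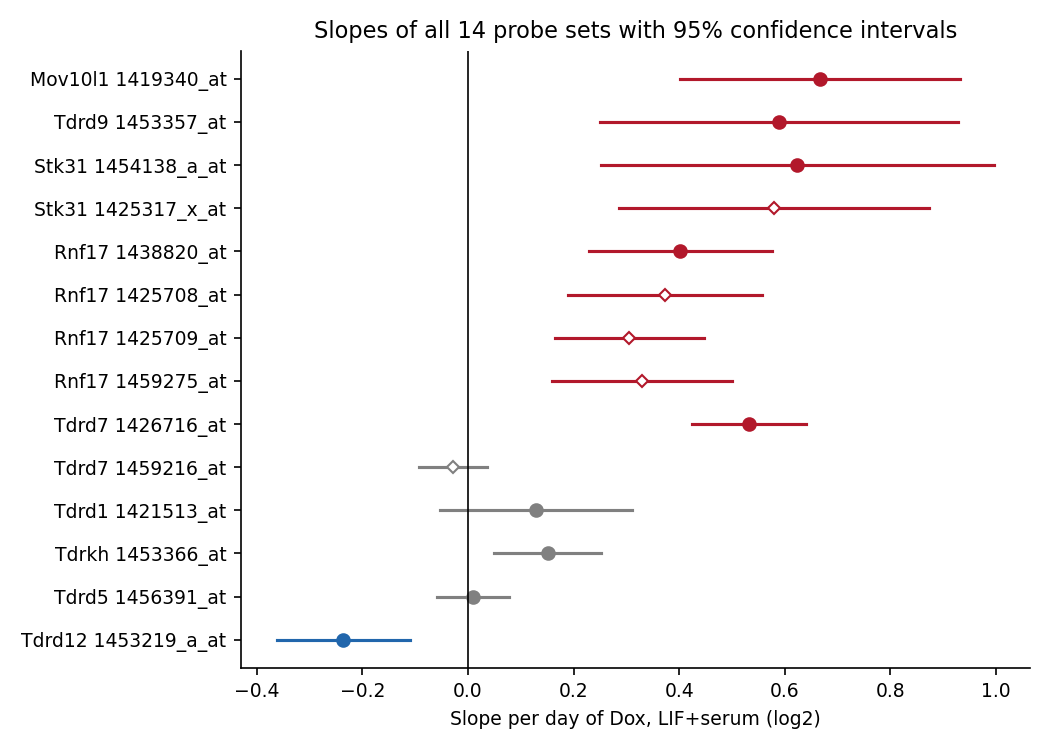
Slope per day of Dox on the log2 scale (horizontal axis) with 95% confidence intervals from limma for the 14 probe sets (vertical axis), filled circles for the brightest probe set of a gene and open diamonds for the others. Red marks a rise and blue a fall at an adjusted p under 0.05, and the 4 probe sets of *Rnf17* and both of *Stk31* lie right of 0 while *Tdrd12* lies left of it.

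*Tdrd7* encodes a Tudor protein of the chromatoid body that is also known from the RNA granules of the lens. Its brighter probe set read 4.05 untreated, then 4.30, 4.06, 5.02 and 6.04 at 1 to 4 d. The second set gave 4.06 untreated, 7.61 at 6 d and 8.36 at 8 d. *Tdrd7* was the last of the 5 to pass 2-fold, with a fold of 1.96 after 3 d and 3.98 after 4 d, and reached 11.7 after 6 d and 19.8 after 8 d. Both untreated arrays differed by 0.01 log2 units, and its slope of 0.53 per day (SE 0.05, adjusted p = 0.0023 from limma) had the lowest adjusted p of the 9 genes. A second probe set stayed between 2.76 and 3.42 log2 on all arrays and had a slope of -0.03 (adjusted p = 0.616 from limma).

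Among the granule scaffolds and anchors, *Tdrd1*, *Tdrkh* and *Tdrd5* did not pass the test. *Tdrd1* encodes the Tudor protein that binds the PIWI protein MILI between mitochondria. Its log2 values were 4.69 untreated and 5.95, 4.64, 6.55 and 6.29 at 1 to 4 d, then 4.55 untreated, 5.08 at 6 d and 4.92 at 8 d in the second set. The values at 3 and 4 d were 3.62-fold and 3.02-fold the untreated one, while those at 6 and 8 d were 1.44-fold and 1.30-fold. A straight line over days gave a slope of 0.13 (SE 0.08, adjusted p = 0.380 from limma). It was 0.30 without the second untreated array, 0.38 over the first set alone and 0.03 without the array set as a covariate, and did not pass in any of these fits.

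*Tdrkh* encodes a Tudor protein anchored in the outer mitochondrial membrane, where it holds PIWI proteins while piRNA ends are trimmed. It read 6.30 untreated and 5.52, 5.70, 6.01 and 6.19 at 1 to 4 d, and 5.63 untreated, 6.98 at 6 d and 7.02 at 8 d in the second set. No array of the first set exceeded its untreated array, and both later ones were 2.55-fold and 2.63-fold their own. The slope was 0.15 per day (SE 0.05, adjusted p = 0.0693 from limma), and it passed at 0.0300 without the array set as a covariate and at 0.00558 without the first untreated array. Without the second untreated array the slope was 0.027 (adjusted p = 0.916 from limma), and over the first set alone 0.028 (adjusted p = 0.895 from limma).

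*Tdrd5* encodes a Tudor protein needed for the chromatoid body and for the processing of piRNA precursors. It stayed between 4.95 and 5.67 log2 on the 8 arrays in LIF+serum, with folds of 0.760 to 1.24. The slope was 0.01 (95% confidence interval -0.06 to 0.08, adjusted p = 0.896 from limma).

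**Figure D3:**
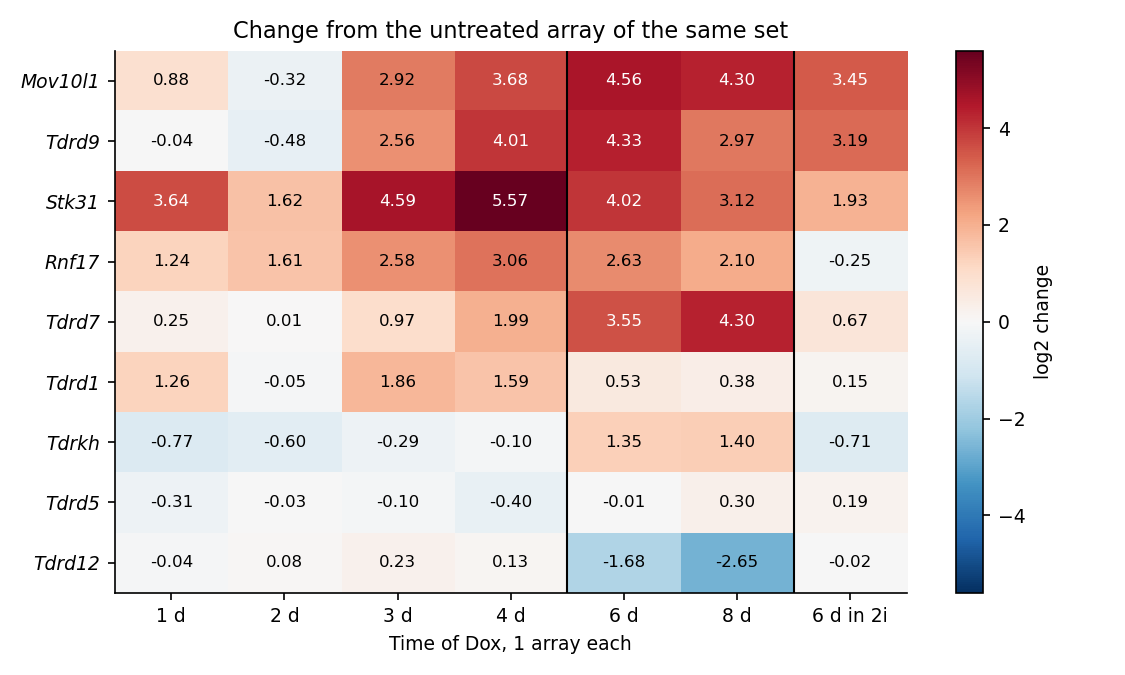
Log2 change against the untreated array of each set (colour and printed value) for the 9 genes (rows) at each Dox time (columns, 1 array each), with vertical lines between the array sets. *Stk31* and *Rnf17* were above 1 from 1 d on in LIF+serum, *Tdrd7* stayed below 1 until 4 d, and *Tdrd12* was -1.68 and -2.65 at 6 and 8 d. For *Stk31* and *Rnf17* the untreated array used for 1 to 4 d was the lower of both in LIF+serum.

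Day by day, 3 of the 9 genes (*Tdrd1*, *Stk31* and *Rnf17*) were at least 2-fold above the untreated array at 1 d, where 3.0% of all genes were, and 2 (*Stk31* and *Rnf17*) at 2 d, where 4.28% were. At 3 d there were 5 (*Tdrd1*, *Tdrd9*, *Mov10l1*, *Stk31* and *Rnf17*) against 6.13% of all genes. At 4 d there were 6, with *Tdrd7* added, against 7.72%. At 6 and 8 d there were again 6 of 9, with *Tdrkh* in and *Tdrd1* out, against 5.94% and 6.38% of all genes. None was at least 2-fold lower at 1, 2, 3 or 4 d, where 0.566%, 1.36%, 3.06% and 3.92% of all genes were. *Tdrd12* alone was at 6 d (5.35% of all genes) and at 8 d (5.65%). For the 9 genes the median fold was 3.98 (4 d), 6.21 (6 d) and 4.28 (8 d), and that of all genes lay between 0.93 and 0.97 at every Dox time in LIF+serum. With 1 array per time these counts have no test. For *Stk31* and *Rnf17* the counts at 1 and 2 d rest on the first untreated array (3.84 and 7.15 log2), which was below the second (5.78 and 8.03).

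A dip between 1 and 2 d was common to part of the group. The log2 value at 2 d minus that at 1 d was -2.02 for *Stk31*, -1.31 for *Tdrd1* and -1.20 for *Mov10l1*, so these 3 of 9 genes were at least 2-fold lower at 2 d, where 0.989% of all genes were. *Rnf17* was higher at 2 d by 0.37. Whether the array at 1 d or that at 2 d departs from the course of the cells cannot be told apart with 1 array each, and the comparison was chosen after its values were seen. The change from the untreated array of the set was largest at 6 d for 2 of the 9 genes (*Mov10l1* and *Tdrd9*), at 4 d for 2 (*Stk31* and *Rnf17*), at 8 d for 3 (*Tdrd7*, *Tdrkh* and *Tdrd5*) and at 3 d for 2 (*Tdrd1* and *Tdrd12*). For *Stk31* and *Rnf17* the log2 level itself was highest at 6 d, in the set whose untreated array was higher by 1.94 and 0.88.

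Set against *Tdrd12* directly, the slopes of all 8 other genes were higher and 0 lower by limma with Benjamini-Hochberg adjustment, but those of 82.1% of all genes were higher and of 0.066% lower, so this count is not a result about the group. That fit gave every gene the same error. With the error of each gene taken from its own values, an alternative added once the values had been seen, 5 of 8 had a higher slope than *Tdrd12* and 19.3% of all genes did. The difference was 0.90 per day for *Mov10l1* (SE 0.14, adjusted p = 0.0273), 0.86 for *Stk31* (SE 0.19, adjusted p = 0.0459), 0.82 for *Tdrd9* (SE 0.17, adjusted p = 0.0415), 0.77 for *Tdrd7* (SE 0.10, adjusted p = 0.0231) and 0.64 for *Rnf17* (SE 0.05, adjusted p = 0.0141), each from limma's lmFit without moderation. For *Tdrkh*, *Tdrd1* and *Tdrd5* it was 0.39, 0.36 and 0.25, with adjusted p of 0.0578, 0.0522 and 0.0761 from the same fit. These 5 genes are those called as rising on the same 8 arrays (*Mov10l1*, *Stk31*, *Tdrd9*, *Tdrd7* and *Rnf17*), and *Tdrd12* is the 1 called as falling. The comparison is therefore not independent evidence of a difference.

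At Dox 6 d in 2i, 3 of the 9 (*Mov10l1*, *Tdrd9* and *Stk31*) were at least 2-fold above the untreated array in 2i, and 1.75% of all genes were. Counted at any size, 6 of the 9 were above it, and 7 were at 6 d in LIF+serum. The share of all genes above by any amount was not computed. The median fold over all genes was 1.01 in 2i and 0.95 at 6 d in LIF+serum, so counts at any size are not read as a result about the group. The fold was 11.0 for *Mov10l1* (6.43 to 9.89 log2), 9.10 for *Tdrd9* (5.93 to 9.12) and 3.80 for *Stk31* (7.10 to 9.03). None of the 9 was at least 2-fold lower, against 2.42% of all genes. The median fold was 1.14 over the 9 genes in 2i.

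No other of the 9 genes reached 2-fold in 2i. *Tdrd7* was 1.59-fold its untreated value (5.57 to 6.24 log2), *Tdrd1* 1.11-fold (4.92 to 5.07), *Tdrd5* 1.14-fold (4.86 to 5.05) and *Tdrkh* 0.611-fold (5.01 to 4.30). *Tdrd12* read 8.06 untreated and 8.05 after Dox, which is 0.989-fold. *Rnf17* read 9.46 and 9.21 in its brightest probe set, or 0.840-fold, and its other probe sets were 0.898-fold, 1.08-fold and 1.67-fold.

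Untreated levels also differed between the media. Against the mean of both untreated arrays in LIF+serum, the untreated array in 2i was higher by 2.29 log2 units for *Stk31*, 1.87 for *Rnf17*, 1.52 for *Tdrd7* and 0.89 for *Tdrd9*. The same difference was -1.06 for *Tdrd12* and -0.95 for *Tdrkh*, both lower in 2i. *Mov10l1* differed by 0.25. This comparison was added after the values were seen. At least 2-fold higher were 3 of the 9 genes, against 6.23% of all genes, and at least 2-fold lower was 1, against 6.71%. The medians of the arrays in 2i were 5.14 and 5.16, below those in LIF+serum (5.26 to 5.33), and medium and array set cannot be told apart.

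**Figure D4:**
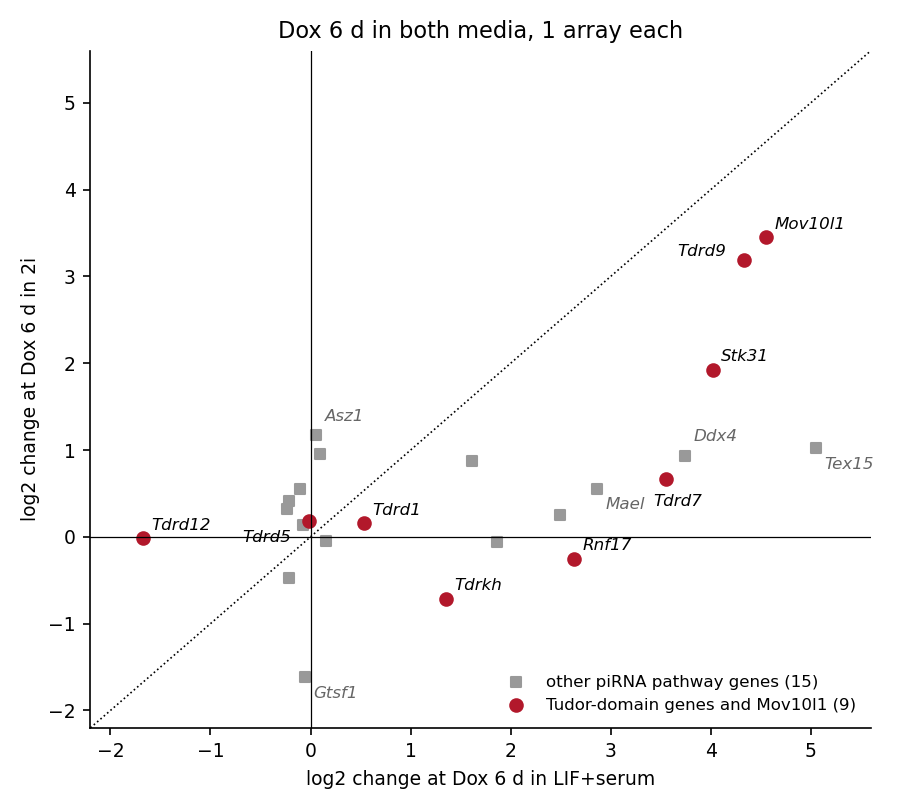
Log2 change at Dox 6 d in LIF+serum (horizontal axis) and in 2i (vertical axis), against the untreated array in that medium and with 1 array each, for the 9 genes (red circles) and 15 other piRNA pathway genes (grey squares), with a dotted line of equal change. *Mov10l1* and *Tdrd9* lie at 3.45 and 3.19 in 2i, while *Tdrd7* and *Rnf17*, at 3.55 and 2.63 in LIF+serum, lie at 0.67 and -0.25 in 2i.

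Of the other genes of the piRNA pathway, 15 of 17 listed had a probe set of their own, and 5 rose, 0 fell and 10 did not pass (before adjustment, limma gave 6 with a higher and 0 with a lower slope at p under 0.05). Those that rose were *Tex15*, which acts in piRNA-guided DNA methylation (0.75 per day, SE 0.11, adjusted p = 0.0060), the germ granule helicase gene *Ddx4* (0.55, SE 0.13, adjusted p = 0.0315), the granule component gene *Mael* (0.45, SE 0.09, adjusted p = 0.0176), *Piwil2*, which encodes MILI (0.26, SE 0.06, adjusted p = 0.0254), and *Mybl1*, a transcription factor gene of meiotic cells (0.21, SE 0.05, adjusted p = 0.0387), by limma. *Tex15* and *Ddx4* had also been picked out on these arrays by the study. Of the other PIWI genes, *Piwil1* and *Piwil4* did not pass and stayed at or below 5.30 and 3.82 log2 on every array. The mitochondrial anchor gene *Asz1* stayed between 4.78 and 5.61 in LIF+serum (slope 0.05, adjusted p = 0.486 from limma). The median slope of the 15 genes was 0.03 per day. Among all genes, 5.75% rose and 5.33% fell, and the shares before adjustment were not computed. The count of 5 was 0 without the second untreated array or with each gene's own variance, 1 without Dox 4 d, 2 without Dox 6 d or over the first set alone and 3 without Dox 3 d. At Dox 6 d in 2i, *Tex15* (6.40 untreated and 7.42 log2 after Dox) and *Asz1* (5.69 and 6.86) were at least 2-fold higher and *Gtsf1*, a PIWI cofactor gene (9.42 and 7.81), was at least 2-fold lower.

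Of 20 Tudor-domain genes with broad expression, each read from its brightest probe set, 0 rose and 1 fell by limma (2 higher and 2 lower before adjustment). Among all genes, 5.75% rose and 5.33% fell, so these counts are not read as a result about the list. The median slope of the list was 0.01 per day. The listed gene that fell was *Uhrf1*, which maintains DNA methylation (slope -0.15, SE 0.03, adjusted p = 0.0098 from limma). By another probe set, *Phf20l1* rose (slope 0.11, adjusted p = 0.0392 from limma) and *Tdrd3* fell (slope -0.15, adjusted p = 0.0324 from limma). The brightest probe sets of *Phf20l1* and *Tdrd3* did not pass. *Smn1*, whose product assembles splicing particles, had a slope of -0.13 (adjusted p = 0.0775 from limma), and *Mtf2*, a Polycomb cofactor gene, one of 0.17 (adjusted p = 0.0929 from limma). With days as log2(day + 1), 2 rose, *Mtf2* and *Arid4b*, and 2 fell, *Smn1* and *Uhrf1*, and without the second untreated array 0 were called.

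Of 8 genes of arginine methylation, symmetric or not, 0 rose and 2 fell by limma (0 higher and 4 lower before adjustment). Among all genes, 5.75% rose and 5.33% fell. *Prmt1*, the main asymmetric arginine methyltransferase gene, fell by 0.15 per day (SE 0.03, adjusted p = 0.0178 from limma). *Wdr77*, which encodes the partner of PRMT5, fell by 0.13 (SE 0.03, adjusted p = 0.0373 from limma). Its other probe sets had slopes of -0.15 (adjusted p = 0.0452 from limma) and 0.04 (adjusted p = 0.574 from limma). *Prmt5*, whose product makes the symmetric marks on PIWI proteins, had a slope of -0.15 that did not pass (adjusted p = 0.0814 from limma). *Clns1a* did not pass by its brightest probe set, but another of its probe sets fell (slope -0.12, adjusted p = 0.0459 from limma). With days as log2(day + 1), 4 genes fell, *Prmt7* and *Prmt5* among them, and 0 did without the second untreated array, without Dox 4 d or with each gene's own variance. Leaving out any one of the first untreated array and Dox 1, 2, 3 or 6 d left 1, *Prmt1*. So did a further quantile normalization and the mean of the probe sets of a gene. *Mov10*, the somatic paralogue of *Mov10l1*, fell by 0.14 per day (adjusted p = 0.0384 from limma), opposite in sign to *Mov10l1*. Its fold after 8 d was 0.345, and its call was lost over the first set alone, with log2(day + 1), with the mean of its probe sets, with its own variance and without any one of the second untreated array and Dox 1, 2, 3, 6 or 8 d.

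**Figure D5:**
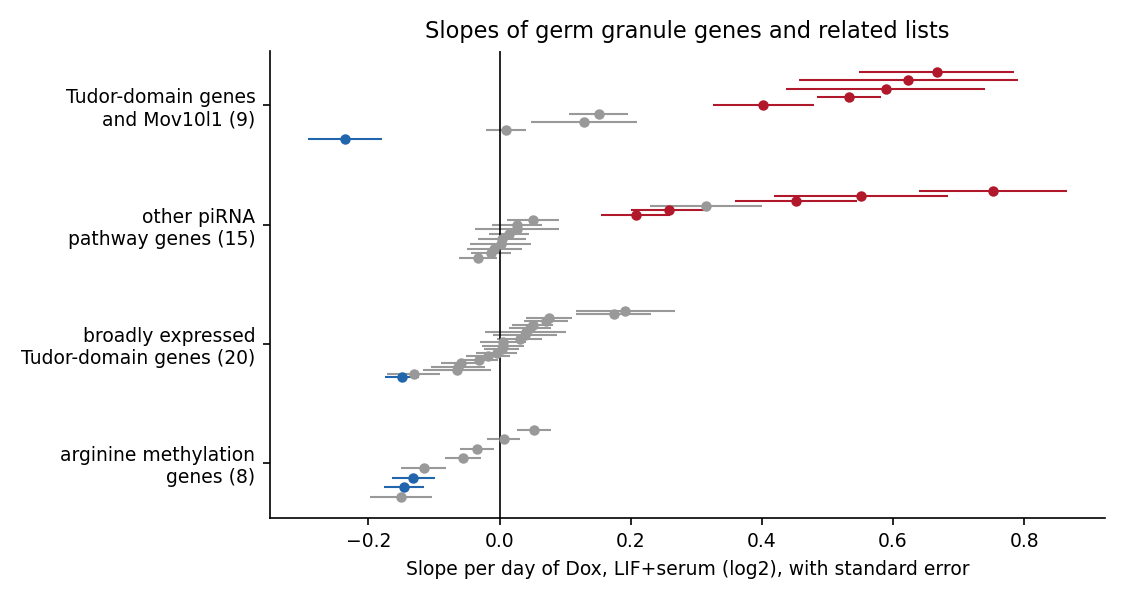
Slopes per day of Dox in LIF+serum on the log2 scale with standard errors (horizontal axis) for the 9 genes and the 3 related lists (vertical axis, genes sorted by slope), with red for a rise and blue for a fall at an adjusted p under 0.05 from limma. The steepest slopes of the 9 genes and of the 15 other piRNA pathway genes reach 0.67 and 0.75 per day, and no gene of the other lists exceeds 0.19.

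The genes whose values followed *Mov10l1* most closely over the 10 arrays, leaving out the group itself, were *Boll* (r = 0.984), *Nxf2* (0.982), *Sec1* (0.976), *Sgcb* (0.965) and *Sycp1* (0.962). *Boll* and *Nxf2* encode germ cell RNA-binding and RNA export proteins, and *Sycp1* a part of the synaptonemal complex. Within the group, *Tdrd9* followed *Mov10l1* at 0.954, *Stk31* at 0.901, *Tdrd7* at 0.842 and *Rnf17* at 0.805. *Tdrd12* was followed most closely by *Pcyt1b* (r = 0.971), *Lima1* (0.971), *4930423M02Rik* (0.955), *Lgals3* (0.948) and *Smr3a* (0.946), and *Tdrd7* ran against it at r = -0.885. *Pcyt1b* encodes an enzyme of phosphatidylcholine synthesis, *Lima1* an actin-binding protein and *Lgals3* galectin-3. These are descriptions over 10 arrays that share days, sets and medium, with no test.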

How the data were processed

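Total RNA of *Max*-null ESCs was hybridised to Affymetrix mouse arrays, 10 in all. The deposited log2 values were made by the authors with robust multi-array analysis (RMA, affy), which subtracts background and normalizes. Versions, and the arrays that were normalized together, are not given in the sources. RMA shrinks differences among weak signals. Samples were grouped by GEO's labels, which name the untreated reference of each set. Of 45101 rows, 64 control probe sets were left out. The array annotation gave 34945 of the other 45037 probe sets 1 symbol (18193 genes), 932 several and did not list 9160. No column was left unused.

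For each probe set, limma fitted a slope over days of Dox to the 8 arrays in LIF+serum with the array set as a covariate (lmFit, eBayes; version 3.58.1 in R 4.3.3). Residual degrees of freedom were 5, and prior ones 4.81. A gene was read from its probe set with the highest mean, and Benjamini-Hochberg adjustment ran over the 45037 probe sets, at a threshold of 0.05. Slopes minus that of *Tdrd12* were fitted likewise. A fold is the ratio of an array to the untreated one in its set. The number of arrays limits the precision: the untreated arrays in LIF+serum were a median of 0.35 log2 units apart over genes, and 8.45% of genes were at least 2-fold apart. Alternatives changed the covariate, day scale, filter, normalization, variance model, probe sets and reference or left out arrays. Steps were tested on simulated data. Python 3.11.15, pandas 2.3.3, numpy 2.4.6 and matplotlib 3.10.9 were used.

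The genes, lists and tests were chosen with earlier results of these data known. Named were every member by every probe set, from each list up to 4 genes each way with the largest slopes among those that passed and up to 3 defining ones that did not, and the 5 genes most like *Mov10l1* and *Tdrd12* each. Listed genes that passed only by a further probe set were named as well.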

Additional observations from a re-analysis of the deposited data

Results flagged for a closer look

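For 3 genes the change at Dox 6 d had the opposite sign in 2i and in LIF+serum, as it had for 46.5% of all genes. The change in 2i minus that in LIF+serum was -2.89 log2 units for *Rnf17* (2.63 in LIF+serum and -0.25 in 2i), -2.06 for *Tdrkh* (1.35 and -0.71) and 0.20 for *Tdrd5* (-0.01 and 0.19). Each change is 1 array against 1 array, and the differences were not tested. The change of *Tdrd5* in LIF+serum is close to 0. Of the 4 probe sets of *Rnf17*, the other one with a negative change in 2i had -0.16, and those with 0.11 and 0.74 in 2i kept the positive sign they had in LIF+serum.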

How the results depend on the processing

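The count of 5 genes that rose was 3 after a further quantile normalization, 1 with each gene's own variance (chosen after seeing the data) and 0 to 5 when 1 array was left out, with 0 without the second untreated array, 3 without Dox 1, 3, 4 or 6 d and 4 without the first untreated array. The 1 fall was lost (0) with log2(day + 1), with each gene's own variance, over the first set alone and without the second untreated array, Dox 6 d or Dox 8 d, so leaving out 1 array gave 0 to 1. For rises and falls, the share of all genes was computed for the main fit after adjustment only. The count of 8 genes above *Tdrd12* was 5 with each gene's own variance, 4 over the first set alone and 5 to 8 when 1 array was left out. Over the first set alone, slopes turned for *Tdrd12* (0.053), for *Tdrd5* (-0.058) and for *Tdrd5* and *Tdrkh* minus *Tdrd12* (-0.11 and -0.024). The slope of *Tdrd5* ran from -0.022 (without the second untreated array or Dox 8 d) to 0.025 when 1 array was left out. The cause was not tested. *Tdrd7* kept its call in every alternative run but that without the second untreated array (adjusted p = 0.245 from limma). The counts of genes at least 2-fold higher at 4, 6 and 8 d and in 2i stayed within 1.5 times under every alternative. No paired analysis was possible because each Dox time had 1 array and only the untreated group had 2. Signal over background was not used here, and 1 array per Dox time gives no error for a fold.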
